A study of Mus musculus with 12 samples.

Results

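The genes described here are the 10 that encode the histone methyltransferase complex PRC2 and the enzymes that remove its mark: *Ezh1*, *Ezh2*, *Eed*, *Suz12*, *Jarid2*, *Aebp2*, *Mtf2*, *Phf19*, *Kdm6a* and *Kdm6b*. They were chosen by name from a table of 55385 genes, and all 10 were found there. Their RNA was measured in spermatogonia sorted from adult mouse testes, as 12 RNA-seq libraries in 6 groups of 2.

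PRC2 methylates lysine 27 of histone H3, and the trimethylated form, H3K27me3, marks repressed developmental genes. EZH1 and EZH2 are its alternative catalytic subunits, EED and SUZ12 are core subunits, and accessory subunits sort the complex into PRC2.1 (MTF2, PHF19, PHF1) and PRC2.2 (JARID2, AEBP2). The PRC2.2 subunits recognise H2AK119ub, the mark that PRC1 places through RNF2 or RING1, and KDM6A and KDM6B remove H3K27me3. In the adult testis, undifferentiated spermatogonia (Aundiff) hold the stem cells, and retinoic acid drives them to become differentiating spermatogonia (Adiff).

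The WT Aundiff and WT Adiff groups came from untreated C57BL/6 males at 2 to 3 months (mo). Aundiff were sorted as E-Cadherin-positive, CD9-high, KIT-negative cells, and Adiff as E-Cadherin-positive, CD9-medium, KIT-positive cells. The other 4 groups were Aundiff of PRC1ctrl or PRC1cKO males on a mixed C57BL/6 and FVB/NJ background. PRC1cKO mice were Ring1-/-; Rnf2 F/-; *Ddx4*-Cre, and the PRC1ctrl littermates were Ring1-/-; Rnf2 F/+; *Ddx4*-Cre, so that the controls also lacked *Ring1* and carried the Cre, which is active in germ cells before birth. One pair of groups was taken at 2 mo without treatment. The other pair received Win18446, an inhibitor of retinoic acid synthesis, subcutaneously from 1 month of age in about 30 daily injections of 50 µl at 40 µg/µl in DMSO, and was sampled 24 h after the last one. The 8 libraries of the WT and Win18446 groups were TruSeq stranded libraries of polyadenylated RNA from 100000 to 150000 pooled cells each. The 4 libraries of the 2 mo PRC1 mice were Smart-Seq2 libraries from about 7000 pooled cells each. Library kit, cell number and treatment therefore cannot be told apart between the 2 mo and Win18446 groups.

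The deposited unit is TPM, a share of each library corrected for transcript length, so that levels of different genes can be compared but read depth is unknown. *Rnf2* was not lower under the label PRC1cKO: it had 28.3 and 47.6 TPM in the 2 mo control libraries against 56.7 and 67.5 TPM, and 78.1 and 67.2 TPM in the Win18446 controls against 86.2 and 93.1 TPM. A value for the whole gene does not show which exons were read, and the groups are called by their labels. *Ring1* was at 0.03 to 0.25 TPM in the 8 libraries of the PRC1 mice and at 8.61 to 19.9 TPM in WT. All 12 markers of undifferentiated spermatogonia reached a mean of 1 TPM in WT Aundiff and in both control groups, and summed to 1066 and 1206 TPM in WT Aundiff against 301 and 342 TPM in WT Adiff. Replicates correlated at 0.966 to 0.991 across genes (Pearson, log2(TPM + 1)). Mitochondrial genes held 12.5% to 16.7% of TPM in the Smart-Seq2 libraries and 4.28% to 6.69% in the others.

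The promoters are shown because several of the genes moved together across the TruSeq libraries, below. RefSeq promoter sequences (GRCm38.p6, 250 bases before to 50 after the start) matched 9 of the 10 genes, with 13 promoters between them, and *Kdm6b* was not matched. They were searched on both strands for TTCCCGC and TTGGCGC, letters that E2F cell cycle factors can bind. The letters stood in 3 of the 13 promoters, 1 each of *Ezh2*, *Suz12* and *Phf19*, against 6.81% of all 32851 promoters. AGGTCA, the half-site of retinoic acid receptors, stood in 1 of the 13, a promoter of *Kdm6a*, against 16.3% of all promoters. Below, capitals mark the E2F letters, and each sequence is written along its gene's strand. The *Ezh1* promoter is given as an example of those that hold none. The *Ezh2* promoter is chr6:47594981-47595280 on the minus strand, with the letters starting 4 bases after the start. The *Suz12* promoter is chr11:79992856-79993155 on the plus strand, with the letters starting 218 bases before the start. The *Phf19* promoter is chr2:34913927-34914226 on the minus strand, where the letters lie 208 bases before the start and read TTCCCGC on the opposite strand. The *Ezh1* promoter is chr11:101226414-101226713 on the minus strand. A match in these windows is a description of the letters and not of a bound site.
Ezh2: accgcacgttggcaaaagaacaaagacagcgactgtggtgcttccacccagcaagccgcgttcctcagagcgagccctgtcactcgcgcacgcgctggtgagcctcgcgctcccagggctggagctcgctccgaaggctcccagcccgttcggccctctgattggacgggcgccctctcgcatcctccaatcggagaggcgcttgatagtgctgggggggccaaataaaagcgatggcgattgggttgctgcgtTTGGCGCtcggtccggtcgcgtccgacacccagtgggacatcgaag
Suz12: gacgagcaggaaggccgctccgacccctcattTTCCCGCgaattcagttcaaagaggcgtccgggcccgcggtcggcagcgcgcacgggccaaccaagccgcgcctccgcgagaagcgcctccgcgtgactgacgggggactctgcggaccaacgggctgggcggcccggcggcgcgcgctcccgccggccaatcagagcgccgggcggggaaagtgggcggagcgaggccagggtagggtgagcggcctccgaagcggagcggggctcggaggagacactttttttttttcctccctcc
Phf19: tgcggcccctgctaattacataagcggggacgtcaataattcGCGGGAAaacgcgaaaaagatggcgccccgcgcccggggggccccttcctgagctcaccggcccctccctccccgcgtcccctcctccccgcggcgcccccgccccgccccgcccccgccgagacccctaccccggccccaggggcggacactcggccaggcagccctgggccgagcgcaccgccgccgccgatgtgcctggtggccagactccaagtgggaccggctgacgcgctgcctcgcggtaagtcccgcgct
Ezh1: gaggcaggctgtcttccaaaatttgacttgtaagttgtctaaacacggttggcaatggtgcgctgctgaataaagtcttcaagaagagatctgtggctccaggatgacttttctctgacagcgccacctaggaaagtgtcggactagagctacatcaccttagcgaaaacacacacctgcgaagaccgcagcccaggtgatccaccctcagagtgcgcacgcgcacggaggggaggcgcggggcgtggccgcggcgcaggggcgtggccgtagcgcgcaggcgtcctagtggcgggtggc

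In level, *Eed* and *Mtf2* were among the higher of the 10 genes in every group, and *Phf19* and *Kdm6a* were the lowest. In WT Aundiff, *Eed* (132 and 114 TPM) and *Mtf2* (117 and 120 TPM) led, followed by *Jarid2* (75.9 and 81.3 TPM) and *Ezh1* (60.1 and 65.3 TPM). *Kdm6a* had 6.14 and 6.54 TPM there and *Phf19* had 2.63 and 4.02 TPM. The 4 Smart-Seq2 libraries stood apart from the other 8, with higher *Ezh2*, *Eed* and *Mtf2* and lower *Ezh1*, *Jarid2*, *Kdm6a* and *Kdm6b*.

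**Figure D1:**
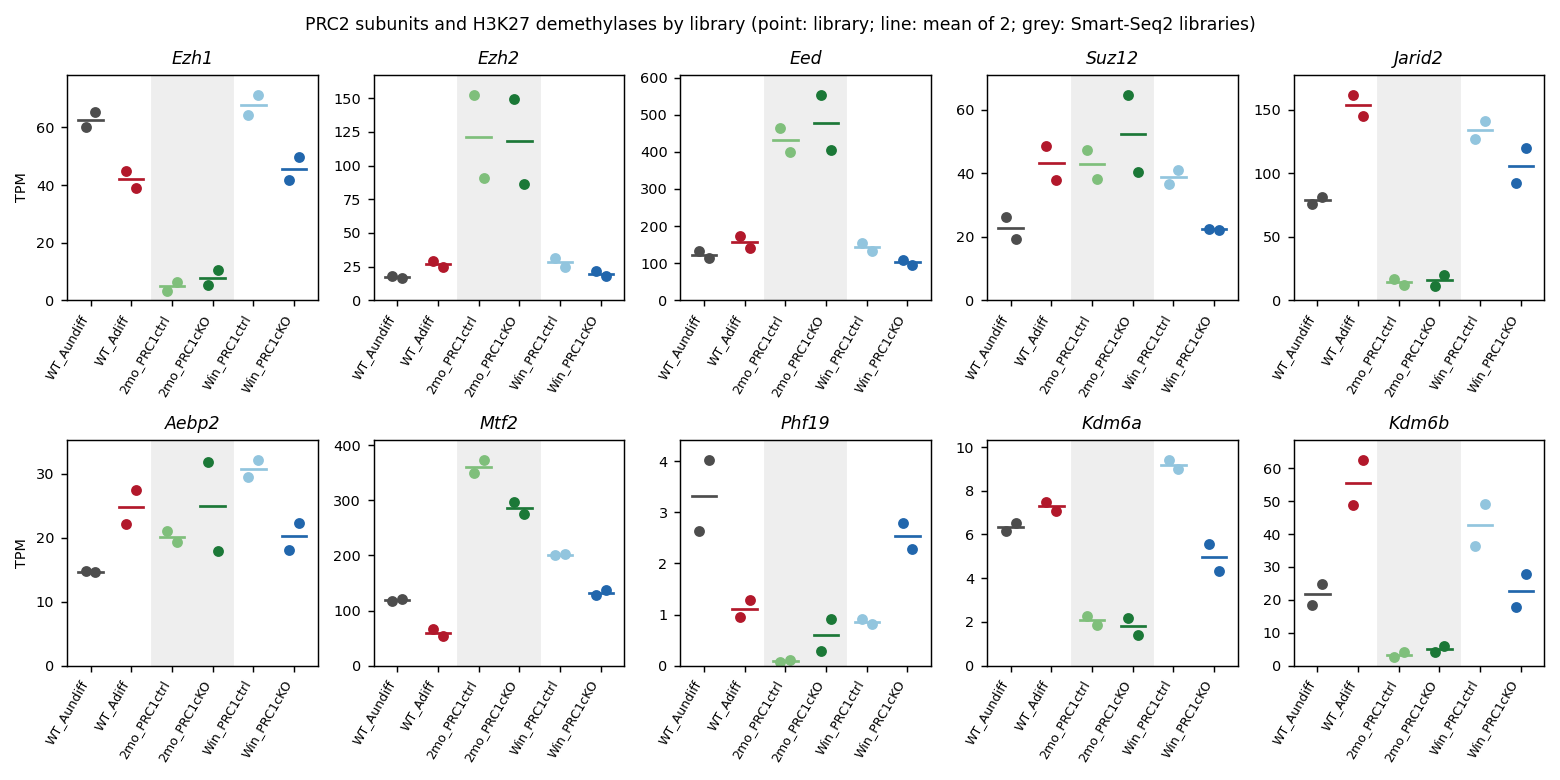
TPM of each of the 10 genes (vertical axis, one panel per gene) in the 6 groups, with 1 point per library, a line at the mean of 2 and the Smart-Seq2 libraries on grey. *Ezh1* lies between 39.1 and 71.2 TPM in the TruSeq libraries and between 3.23 and 10.3 TPM in the Smart-Seq2 libraries, and *Ezh2* shows the opposite order.

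The comparison of WT Adiff with WT Aundiff asks how the complex is expressed as spermatogonia leave the undifferentiated state. From Aundiff to Adiff, *Kdm6b*, *Jarid2*, *Suz12*, *Aebp2* and *Ezh2* rose and *Mtf2*, *Phf19* and *Ezh1* fell (limma on log2(TPM + 1), adjusted p under 0.05). *Eed* and *Kdm6a* did not pass. Thus 5 of 10 genes were higher and 3 lower, against 23.4% higher and 14.7% lower among all 15470 genes tested. *Phf19* would not have been tested at its Adiff levels alone, so its presence among the tested genes favoured a fall. Past an absolute log2 fold change of 1, which 11.1% of all genes exceeded upwards and 9.24% downwards, stood *Kdm6b* among the higher genes and *Phf19* among the lower. The median difference was 0.49 for the 10 genes and 0.15 for all genes. The libraries of the 2 populations did not overlap for any of the 10 genes, among them *Eed* and *Kdm6a*, which did not pass. The share of all genes without overlap was not counted, so this describes the 10 genes only. An unadjusted p under 0.05 (limma) was found for 8 of the 10 and for 7593 of all 15470 genes. In libraries of pooled cells, fewer cells of a type and less RNA per cell cannot be told apart, and a p-value here measures the spread between 2 pools of sorted cells per group.

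**Figure D2:**
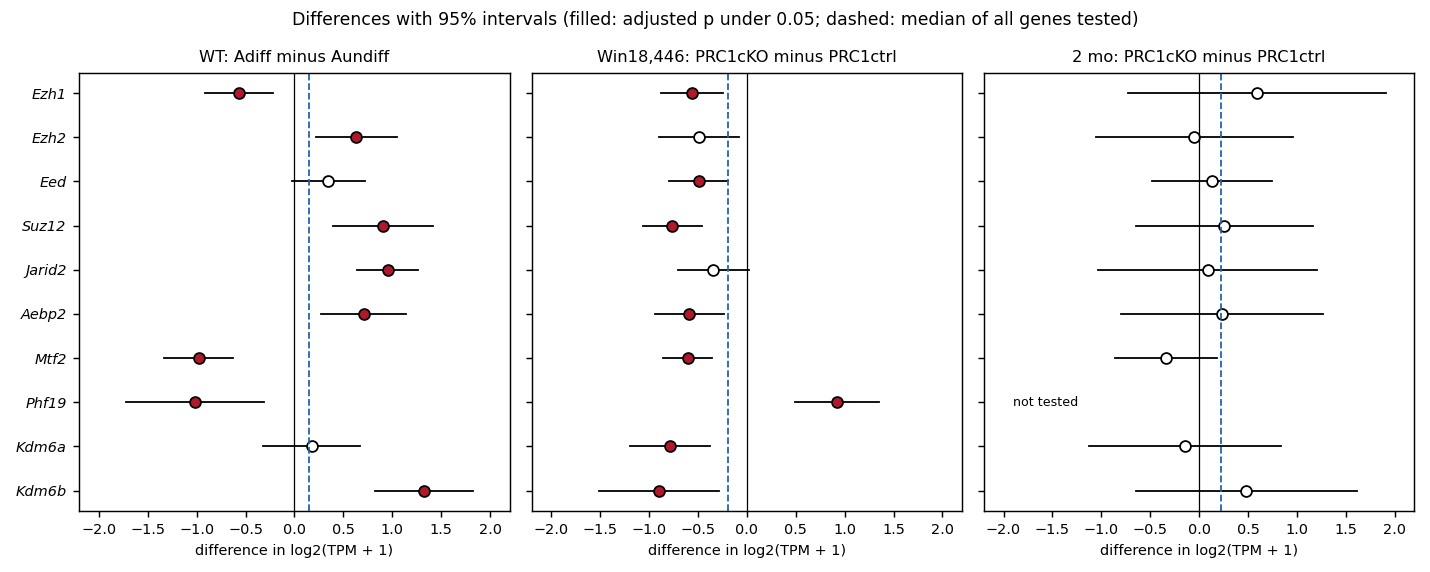
Differences in log2(TPM + 1) with 95% intervals (horizontal axis) for the 10 genes in 3 comparisons, with filled points at an adjusted p under 0.05 and a dashed line at the median of all genes tested. In WT, 5 genes are filled to the right of 0 and 3 to the left, after Win18446 only *Phf19* is filled to the right and 7 genes to the left, and at 2 mo none is filled.

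The catalytic subunits moved in opposite directions. *Ezh1*, on chromosome 11 from 101191115 to 101226463 (GRCm38), encodes the subunit with the weaker methyltransferase activity, which prevails in resting cells. It had 60.1 and 65.3 TPM in Aundiff and 44.9 and 39.1 TPM in Adiff. Both Adiff libraries lay below both Aundiff libraries. *Ezh1* fell by 0.57 ± 0.15 (SE) on the log2 scale (limma adjusted p = 0.0258), or -0.72 relative to the median of all genes. It kept its call in 6 of 12 alternatives, and the fit over all 12 libraries gave a limma adjusted p of 0.268. *Ezh2*, on chromosome 6 from 47530139 to 47595341, encodes the more active subunit, which prevails in dividing cells. It had 17.9 and 16.4 TPM in Aundiff and 29.4 and 24.99 TPM in Adiff. *Ezh2* rose by 0.63 ± 0.17 (limma adjusted p = 0.0297), or 0.48 relative to all genes. It kept its call in 5 of 12 alternatives, and the fit over all 12 libraries gave a limma adjusted p of 0.197. *Ezh1* lost its call without either Aundiff library (limma adjusted p = 0.0884 without replicate 1 and 0.139 without replicate 2) and without Adiff replicate 2 (0.0654). *Ezh2* lost its call without either Aundiff library (limma adjusted p = 0.0958 and 0.137), without Adiff replicate 1 (0.0914) and under both other scalings (0.0776 with median-of-ratios scaling, 0.0761 with quantile normalization).

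As a share within each library, which a single scaling factor per library does not change, *Ezh2* made up 22.9% and 20.1% of the *Ezh1* and *Ezh2* TPM in Aundiff and 39.5% and 39.0% in Adiff. *Ezh1* therefore remained the higher of the 2 catalytic transcripts in all 4 WT libraries. The difference of 17.8 percentage points exceeded the spread of both groups (SD 2.02 and 0.404, n = 2), and the exact permutation test gave p = 0.333, the smallest that 2 libraries against 2 can give.

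Of *Suz12* and *Eed*, *Suz12* rose. *Suz12*, on chromosome 11 from 79993106 to 80034123, encodes the scaffold that holds the accessory subunits, and had 26.2 and 19.2 TPM in Aundiff and 48.6 and 37.97 TPM in Adiff. *Suz12* rose by 0.91 ± 0.21 (limma adjusted p = 0.0191), or 0.76 relative to all genes, and kept its call in 9 of 12 alternatives. The call was lost without Aundiff replicate 2 (difference 0.69). It was also lost with quantile normalization (limma adjusted p = 0.0566) and with no filter on low values (0.0541). *Eed*, on chromosome 7 from 89954654 to 89980983, encodes the subunit that binds H3K27me3 and stimulates the enzyme. It had 132 and 114 TPM in Aundiff and 174 and 141 TPM in Adiff, a difference of 0.35 ± 0.15 (limma adjusted p = 0.123) that passed without Adiff replicate 2 (0.0278).

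Among the accessory subunits, *Jarid2* and *Aebp2* of PRC2.2 rose and *Mtf2* and *Phf19* of PRC2.1 fell, while *Epop* and *Lcor*, also of PRC2.1 and described with the other pathway genes, rose. *Jarid2*, on chromosome 13 from 44729474 to 44921643, encodes a DNA-binding subunit that guides and stimulates PRC2, and had 75.9 and 81.3 TPM in Aundiff and 161 and 145 TPM in Adiff. *Jarid2* rose by 0.95 ± 0.13 (limma adjusted p = 0.00356), or 0.80 relative to all genes, and kept its call in 12 of 12 alternatives. *Aebp2*, on chromosome 6 from 140622663 to 140678472, encodes its zinc finger partner, and had 14.8 and 14.6 TPM in Aundiff and 22.1 and 27.4 TPM in Adiff. *Aebp2* rose by 0.71 ± 0.18 (limma adjusted p = 0.0250), or 0.56 relative to all genes, and kept its call in 5 of 12 alternatives. It lost its call without either Aundiff library (limma adjusted p = 0.101 and 0.0977), without Adiff replicate 2 (0.0787) and under both other scalings (0.0642 and 0.0540).

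*Mtf2* and *Phf19* encode Polycomb-like proteins, which bind unmethylated CpG-rich DNA and methylated lysine 36 of histone H3. *Mtf2*, on chromosome 5 from 108065674 to 108109004, had 117 and 120 TPM in Aundiff and 66.0 and 53.9 TPM in Adiff, with both Adiff libraries well below both Aundiff libraries. *Mtf2* fell by 0.98 ± 0.15 on the log2 scale (limma adjusted p = 0.00491), or -1.13 relative to all genes, and kept its call in 12 of 12 alternatives. *Phf19*, on chromosome 2 from 34893757 to 34914026, was near the filter, with 2.63 and 4.02 TPM in Aundiff and 0.95 and 1.28 TPM in Adiff. *Phf19* fell by 1.02 ± 0.29 (limma adjusted p = 0.0358), or -1.17 relative to all genes, and kept its call in 7 of 11 alternatives. The call was lost without either Aundiff library (differences -1.25 and -0.78) or Adiff replicate 1 (-0.90). It was also lost with no filter on low values (limma adjusted p = 0.0828). *Jarid2* and *Aebp2* together made up 37.5% and 37.1% of the TPM of 6 accessory subunits (with *Mtf2*, *Phf19*, *Phf1* and *Epop*) in Aundiff and 61.4% and 58.2% in Adiff. That difference of 22.5 points again gave the smallest p of the exact permutation test (0.333, n = 2 per group).

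Of the demethylases, *Kdm6b* rose. *Kdm6b*, on chromosome 11 from 69398508 to 69413675, encodes the inducible demethylase JMJD3, and had 18.5 and 24.8 TPM in Aundiff and 48.7 and 62.4 TPM in Adiff. It rose by 1.32 ± 0.21 (limma adjusted p = 0.00540), a ratio of mean TPM of 2.56, or 1.17 on the log2 scale relative to all genes, and kept its call in 12 of 12 alternatives. *Kdm6a*, on chromosome X from 18162575 to 18279936, encodes UTX, a subunit of the MLL3/4 complexes. It had 6.14 and 6.54 TPM in Aundiff and 7.48 and 7.09 TPM in Adiff, with a difference of 0.17 ± 0.21 (limma adjusted p = 0.537, 95% interval -0.32 to 0.67). *Kdm6b* made up 75.1% and 79.2% of the TPM of both demethylases in Aundiff and 86.7% and 89.8% in Adiff (exact permutation p = 0.333, n = 2 per group). The TPM of *Ezh1* and *Ezh2* together exceeded that of both demethylases by 3.16 and 2.60 times in Aundiff and stood at 1.32 and 0.922 times in Adiff (exact permutation p = 0.333).

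**Figure D3:**
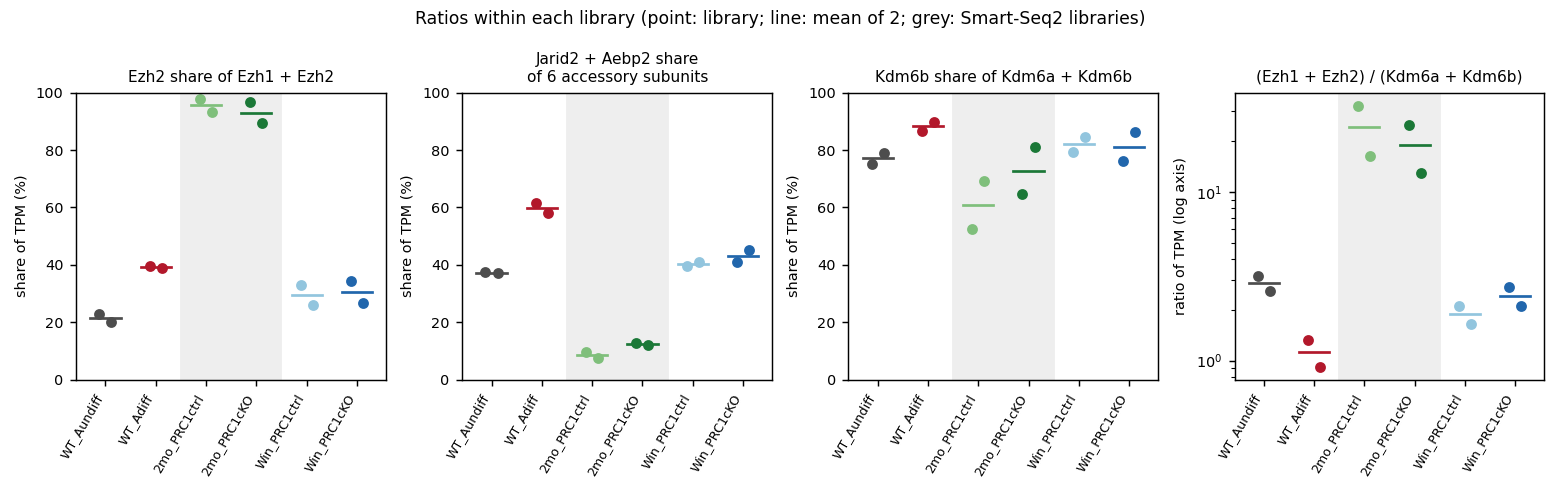
Shares in percent of TPM (first 3 panels, axis from 0 to 100) and the ratio of methyltransferase to demethylase TPM (last panel, log axis) in each library, with a line at the mean of 2 and Smart-Seq2 libraries on grey. All 4 measures separate WT Adiff from WT Aundiff, and the *Ezh2* share is between 89.3% and 97.9% in the Smart-Seq2 libraries against 20.1% to 39.5% in the TruSeq libraries.

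Proliferation markers moved with the WT comparison: 15 of 17 rose in Adiff, and their summed TPM went from 1656 and 1683 to 3309 and 3174. Spermatid markers summed to 823 and 899 TPM in Aundiff and to 562 and 746 TPM in Adiff, and 3 of 9 fell. The part of either in the values above was not tested. The choice of scaling bore on the count of genes. Median-of-ratios scaling set the median of all genes to -0.002, took the share of all calls that were higher from 61.4% to 46.7%, and left 3 of the 10 genes higher (*Suz12*, *Jarid2*, *Kdm6b*) and 3 lower (*Ezh1*, *Mtf2*, *Phf19*). Quantile normalization gave a share of 50.4% and left 2 higher (*Jarid2*, *Kdm6b*) and 3 lower (*Ezh1*, *Mtf2*, *Phf19*).

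The libraries labelled PRC1cKO were compared with PRC1ctrl after Win18446, where the block of retinoic acid synthesis holds spermatogonia in the undifferentiated state, to see whether the label goes with a change in PRC2 transcripts themselves. Under the label PRC1cKO, 7 of the 10 genes fell and *Phf19* rose, and no absolute log2 fold change reached 1. The genes that fell were *Kdm6b*, *Kdm6a*, *Suz12*, *Mtf2*, *Aebp2*, *Ezh1* and *Eed*, with 26.7% of all 16521 genes tested lower and 5.87% higher. Past an absolute log2 fold change of 1, 10.9% of all genes were lower and 1.27% higher, and none of the 10. The median difference was -0.58 for the 10 genes and -0.19 for all genes. For all 10 genes the libraries of the 2 labels did not overlap, among them *Ezh2* and *Jarid2*, which did not pass. The share of all genes without overlap was not counted. An unadjusted p under 0.05 (limma) was found for 9 of the 10 and for 7317 of all 16521 genes.

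The falls were read against transcript length, with which differences moved in these libraries. The median difference of protein-coding genes went from 0.08 for longest transcripts under 2000 bases to -0.68 for those of 8000 bases or more, of which 57.9% fell. Each value below is therefore given also relative to the median of genes in the same of 5 length classes, a comparison added after the data were seen. The part of length in the differences was not tested.

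*Suz12* had 36.5 and 41.0 TPM in the control libraries and 22.6 and 22.2 TPM under the label PRC1cKO. It fell by 0.76 ± 0.13 on the log2 scale (limma adjusted p = 0.00628), or -0.48 relative to genes of like length, and kept its call in 11 of 12 alternatives, the fit over all 12 libraries being the exception (0.113). *Eed* had 154 and 133 TPM against 108 and 95.5 TPM, and fell by 0.49 ± 0.13 (limma adjusted p = 0.0269), or -0.36 relative to like length. Its call was lost in 8 of 12 alternatives, among them those without control replicate 1 (limma adjusted p = 0.0828) and without PRC1cKO replicate 1 (0.0714) or 2 (0.137).

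Of the catalytic subunits, *Ezh1* had 64.5 and 71.2 TPM in controls and 41.9 and 49.6 TPM under the label PRC1cKO, so that every library of the label lay below both controls. *Ezh1* fell by 0.56 ± 0.13 (limma adjusted p = 0.0200), or -0.28 relative to like length, and kept its call in 6 of 12 alternatives. It lost its call without control replicate 2 (limma adjusted p = 0.0525) or PRC1cKO replicate 1 (0.117), and under both other scalings (0.0704 and 0.0529). *Ezh2* had 31.7 and 24.97 TPM against 21.8 and 17.9 TPM, a difference of -0.49 ± 0.17 that did not pass (limma adjusted p = 0.0680), and did without control replicate 2 (0.0203). Within libraries, *Ezh2* made up 33.0% and 26.0% of the TPM of both catalytic genes in controls and 34.2% and 26.5% under the label, where groups overlapped (exact permutation p = 0.667, n = 2 per group).

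Among accessory subunits, *Mtf2* had 200.01 and 202 TPM in controls and 127 and 137 TPM under the label PRC1cKO. *Mtf2* fell by 0.60 ± 0.10 (limma adjusted p = 0.00725), or -0.32 relative to like length, with a call lost only without PRC1cKO replicate 1 (0.0575) among 12 alternatives. *Phf19*, at 0.91 and 0.81 TPM in controls and 2.79 and 2.28 TPM under the label, was the gene of the 10 that rose, by 0.92 ± 0.18 (limma adjusted p = 0.0108), or 1.05 relative to like length. The ratio of its mean TPM was 2.95, larger than the fitted value on a scale with 1 TPM added. *Phf19* passed the filter on low values only through the libraries labelled PRC1cKO, so its presence among tested genes already favoured a rise, also in the alternatives that keep such a filter.

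*Aebp2* had 29.5 and 32.1 TPM in controls and 18.1 and 22.3 TPM under the label. It fell by 0.59 ± 0.15 (limma adjusted p = 0.0249), or -0.30 relative to like length, and kept its call in 6 of 12 alternatives. That call was lost with median-of-ratios scaling (limma adjusted p = 0.0796) and quantile normalization (0.108). It was also lost without control replicate 2 (difference -0.53) or PRC1cKO replicate 1 (-0.44). *Jarid2*, whose longest transcript of 8353 bases is the longest of the 10, had 127 and 141 TPM in controls and 91.96 and 120 TPM under the label. Its difference of -0.34 ± 0.15 did not pass (limma adjusted p = 0.129), and relative to genes of like length it was 0.34. *Jarid2* and *Aebp2* made up 39.6% and 40.8% of the accessory TPM in controls and 41.0% and 45.3% under the label (exact permutation p = 0.333, the smallest possible).

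Both demethylase genes fell. *Kdm6a* had 9.39 and 9 TPM in controls and 5.58 and 4.35 TPM under the label PRC1cKO. It fell by 0.78 ± 0.17 (limma adjusted p = 0.0155), or -0.49 relative to like length, and kept its call in 8 of 12 alternatives. The call was lost without PRC1cKO replicate 2 (0.0920) and with median-of-ratios scaling (0.0517) or quantile normalization (0.0788). *Kdm6b* had 36.3 and 49.0 TPM in controls and 17.7 and 27.8 TPM under the label, with a wide spread in both groups. It fell by 0.90 ± 0.25 (limma adjusted p = 0.0400), or -0.41 relative to like length, and kept its call in 5 of 12 alternatives. The call was lost with median-of-ratios scaling (limma adjusted p = 0.0729) and quantile normalization (0.0798). It was also lost without control replicate 2 (difference -0.68) or PRC1cKO replicate 1 (-0.59). The ratio of methyltransferase to demethylase TPM was 2.11 and 1.66 in controls and 2.74 and 2.0996 under the label, which overlapped (exact permutation p = 0.667).

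Other transcripts moved with this comparison too. Markers of undifferentiated spermatogonia summed to 988 and 1101 TPM in controls and 749 and 852 TPM under the label PRC1cKO, with 3 of 12 lower, and proliferation markers to 1199 and 1203 TPM against 1423 and 1539 TPM, with 5 of 17 higher. Spermatid markers summed to 147 and 133 TPM in controls and 26.0 and 23.8 TPM under the label PRC1cKO, with 7 of the 8 tested lower and *Prm2*, *Acrv1* and *Ms4a5* listed at 0 in both PRC1cKO libraries. Leydig cell markers summed to 397 and 82.1 TPM against 73.2 and 20.6 TPM. Differentiating spermatogonia markers summed to 640 and 707 TPM against 813 and 895 TPM, with 6 of 9 higher and 1 lower. The lower one was *Stra8*, at 10.7 and 12.4 TPM in controls and 7.91 and 7.9 TPM under the label. Sertoli cell markers overlapped between the labels, at 187 and 117 TPM against 199 and 125 TPM. The part of these in the values above was not tested. With median-of-ratios scaling the median of all genes moved from -0.19 to 0.03 and the share of all calls that were higher from 18.0% to 46.0%. *Suz12* and *Mtf2* lower, and *Phf19* higher among genes let in by the same filter, were the calls among the 10 genes left under it and with quantile normalization (46.6% of all calls higher).

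At 2 mo, without treatment, none of the 9 genes tested passed between the labels (limma adjusted p of 0.540 or more), and none had an unadjusted p under 0.05. Among all 13953 genes tested, 1985 had an unadjusted p under 0.05. By adjusted p, 0.222% were higher and 1.94% lower, or 31 and 270 genes. That balance rested on single libraries: without control replicate 2 it was 124 higher and 44 lower, without control replicate 1 it was 31 and 47, and without PRC1cKO replicate 1 it was 1 and 149. The median SE over all genes was 0.424 in these Smart-Seq2 libraries, against 0.166 after Win18446 and 0.220 in WT. The 95% intervals at 2 mo held the value seen after Win18446 for *Ezh1*, *Ezh2*, *Jarid2*, *Aebp2*, *Mtf2* and *Kdm6a*, and ended short of it for *Eed*, *Suz12* and *Kdm6b*.

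*Ezh2* had 152 and 90.8 TPM in the 2 mo controls and 149 and 86.5 TPM under the label PRC1cKO, with a difference of -0.05 (95% interval -1.05 to 0.95). Replicate 1 was the higher in both groups, and the gap between replicates was larger than that between labels. *Ezh1* had 3.23 and 6.36 TPM against 5.22 and 10.3 TPM, a difference of 0.59 (-0.73 to 1.91). *Eed*, at 463 and 399.95 TPM in controls and 553 and 404 TPM under the label, differed by 0.13 (-0.48 to 0.75). *Suz12* had 47.4 and 38.3 TPM against 64.6 and 40.4 TPM (0.26, -0.65 to 1.16). The libraries of these 4 core genes overlapped between labels.

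*Mtf2* was the one gene tested whose libraries did not overlap at 2 mo, a count that was not made for all genes. It had 350.2 and 373 TPM in controls and 297 and 274 TPM under the label PRC1cKO. Its difference of -0.34 ± 0.21 had an interval of -0.86 to 0.18 (limma adjusted p = 0.540). *Phf19* was below 1 TPM in all 4 libraries and was not tested: it had 0.07 and 0.10 TPM in controls and 0.28 and 0.91 TPM under the label. *Jarid2* (17.0 and 11.7 TPM against 11.3 and 19.9 TPM) and *Aebp2* (21.0 and 19.4 TPM against 31.8 and 17.9 TPM) overlapped. Their summed share of accessory TPM was 9.76% and 7.67% in controls and 12.7% and 11.995% under the label (exact permutation p = 0.333, n = 2 per group).

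*Kdm6a* had 2.29 and 1.84 TPM in the 2 mo controls and 2.19 and 1.40 TPM under the label PRC1cKO, and *Kdm6b* had 2.52 and 4.13 TPM against 3.99 and 6.05 TPM. Both overlapped, with differences of -0.14 (95% interval -1.13 to 0.84) and 0.48 (-0.65 to 1.61). Beside these values, undifferentiated markers summed to 910 and 1190 TPM in controls and 421 and 511 TPM under the label. Of them 1 of 12 was lower (*Nanos3*), with a list median of -0.22 against 0.22 for all genes. *Sall4* (517 and 704 TPM against 266 and 314 TPM) and *Nanos3* (286 and 349 TPM against 92.4 and 80.6 TPM) held most of those sums. Differentiating markers summed to 249.5 and 277 TPM against 601 and 705 TPM, with 0 of 9 passing. Spermatid markers summed to 1081 and 2234 TPM in controls and 65.8 and 59.5 TPM under the label, with 6 of 8 tested lower. Proliferation markers summed to 1378 and 1578 TPM against 2298 and 2338 TPM, with 0 of 17 passing. Leydig cell markers summed to 1.04 and 1.21 TPM against 21.0 and 48.0 TPM, with 1 of 5 tested higher. Their part was not tested.

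Averaged over both settings, each taken within its own library kit, *Mtf2* was lower and *Phf19* higher under the label PRC1cKO. *Mtf2* fell by 0.47 ± 0.10 (limma adjusted p = 0.0277) and *Phf19* rose by 0.73 ± 0.16 (limma adjusted p = 0.0332), against 9.26% of all 18354 genes lower and 2.93% higher. In both settings every PRC1cKO library lay below every control library for *Mtf2* and above it for *Phf19*. *Phf19* passed the filter only through the 2 PRC1cKO libraries after Win18446, so its presence among tested genes favoured a rise here too. Neither call was firm: *Mtf2* kept it in 7 of 16 alternatives and *Phf19* in 6 of 13. *Mtf2* lost it without 6 of the libraries taken singly, both PRC1cKO libraries at 2 mo (0.0517 and 0.0721) and all 4 after Win18446 (0.0968 to 0.134). *Phf19* lost it without either 2 mo control (0.0725 and 0.0611), PRC1cKO replicate 2 at 2 mo (0.0617) or either Win18446 control (0.118 and 0.144). Of all calls in this comparison 24.1% were higher, and 33.9% with median-of-ratios scaling or 46.0% with quantile normalization. The remaining genes did not pass, *Kdm6a* with the lowest adjusted p of them (0.133, difference -0.46 ± 0.17).

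The difference between the 2 settings was tested by itself, as the interaction of label and setting. None of the 10 genes passed, against 5.03% of all genes lower and 2.77% higher by adjusted p. An unadjusted p under 0.05 (limma) was found for 2 of the 10 and for 4541 of all 18354 genes. *Kdm6b* had an interaction of -1.38 ± 0.50 (limma adjusted p = 0.148) and *Suz12* of -1.02 ± 0.39 (limma adjusted p = 0.165), where the median of all genes was -0.41 (0.12 with median-of-ratios scaling, which took the share of all calls that were higher from 35.5% to 72.9%, and quantile normalization to 61.8%).

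The other genes of the pathway were taken from lists of other PRC2 subunits and inhibitors, enzymes of the MLL3/4 complexes, H3K27 acetyltransferases and H3K36 methyltransferases, given by all their members. In WT, 5 of 7 other PRC2 genes rose in Adiff and none fell, against 23.4% of all genes higher, with a list median of 0.66 against 0.15 for all genes. *Epop*, which links PRC2.1 to elongin, went from 7.80 and 10.6 TPM to 25.2 and 39.4 TPM and rose by 1.69 ± 0.26 (limma adjusted p = 0.00543). *Rbbp4*, a histone chaperone of the PRC2 core, went from 130 and 138 TPM to 301 and 272 TPM and rose by 1.09 ± 0.12 (limma adjusted p = 0.00209). Its paralog *Rbbp7* rose by 0.49, *Lcor*, which encodes the PRC2.1 subunit PALI1, by 0.59, and *Ezhip*, an inhibitor of EZH2 made in germ cells, by 0.66. Those 3 lost their calls under quantile normalization (limma adjusted p = 0.127, 0.0550 and 0.0683) and without either Aundiff library (0.0756 to 0.135), and *Ezhip* also without Adiff replicate 2 (0.0799). *Phf1* and *Lcorl* did not pass.

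In the MLL3/4 complexes, which hold KDM6A and methylate lysine 4 of histone H3, 3 of 9 genes rose in WT Adiff and none fell (list median 0.31), a share near the 23.4% of all genes that were higher. *Paxip1* went from 14.2 and 15.3 TPM to 42.8 and 50.1 TPM and rose by 1.59 ± 0.16 (limma adjusted p = 0.00174). *Ncoa6* rose by 0.77 and *Wdr5* by 0.47, and both lost their calls under both other scalings (limma adjusted p of 0.0813 to 0.157) and without either Aundiff library (0.0787 to 0.197), as did *Ncoa6* without Adiff replicate 2 (0.0997). The methyltransferase genes *Kmt2c* and *Kmt2d* themselves had differences of -0.13 and -0.21 that did not pass. Of the H3K36 methyltransferases, whose mark hinders PRC2 on the same histone tail, *Setd2* rose by 1.15 ± 0.21 (limma adjusted p = 0.00877) and *Nsd2* by 1.04 ± 0.13 (limma adjusted p = 0.00261), 2 of 5. Neither acetyltransferase gene, *Ep300* or *Crebbp*, passed.

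After Win18446, where 26.7% of all genes were lower under the label PRC1cKO, 13 of the 24 genes, with *Uty* counted, fell. Of the acetyltransferases, 2 of 2 fell, with a list median of -1.56 against -0.19 for all genes. *Ep300* went from 108 and 106 TPM to 24.3 and 41.1 TPM (-1.73 ± 0.24, limma adjusted p = 0.00579) and *Crebbp* from 82.5 and 95.6 TPM to 24.0 and 46.2 TPM (-1.39 ± 0.33, limma adjusted p = 0.0383). Both lost their calls without either control library (0.0603 and 0.0678 for *Ep300*, 0.320 and 0.393 for *Crebbp*). Of the H3K36 methyltransferases, 4 of 5 fell: *Ash1l* (-1.77), *Setd2* (-1.64), *Nsd1* (-1.51) and *Nsd3* (-0.63), where *Nsd3* lost its call without either PRC1cKO library (0.0728 and 0.0503). *Nsd2* was at -0.29 and did not pass (limma adjusted p = 0.105). For all 6 genes that fell in these 2 lists, both Win18446 controls lay above both WT Aundiff libraries. The controls were also the farther of the Win18446 groups from WT Aundiff. *Setd2* had 19.9 and 14.6 TPM in WT Aundiff, 72.4 and 69.7 TPM in the controls and 18.0 and 27.1 TPM under the label. *Ep300* had 36.3 and 28.6 TPM in WT Aundiff. No test was made between those groups. All 6 genes have longest transcripts over 8000 bases, and of all protein-coding genes of 8000 bases or more tested 57.9% fell. Relative to genes of like length, *Ep300* was at -1.04, *Ash1l* at -1.09, *Setd2* at -0.96, *Nsd1* at -0.83, *Crebbp* at -0.71 and *Nsd3* at 0.05.

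In the MLL3/4 complexes 3 of 9 genes fell after Win18446 (list median -0.40), a share near that of all genes. *Kmt2c*, with 53.8 and 76.1 TPM in controls and 9.26 and 16.8 TPM under the label PRC1cKO, fell by 2.26 ± 0.32 (limma adjusted p = 0.00779), or -1.58 relative to like length. In WT Aundiff, *Kmt2c* had 9.95 and 10.8 TPM, so that of the Win18446 groups the controls were the farther from WT. *Paxip1* fell by 1.099 ± 0.12 (limma adjusted p = 0.00249) and *Ncoa6* by 0.75 ± 0.19 (limma adjusted p = 0.0242), the latter losing its call without PRC1cKO replicate 1 (0.139). *Kmt2d* had 95.02 and 121 TPM against 12.8 and 38.2 TPM, a larger difference (-2.21 ± 0.65) that did not pass (limma adjusted p = 0.105). In WT Aundiff it had 8.06 and 13.4 TPM, again farther from the controls. Among the other PRC2 genes 3 of 7 fell, *Lcor* (-0.66), *Lcorl* (-0.65) and *Phf1* (-0.55), with a list median of -0.16, and without PRC1cKO replicate 1 the adjusted p was 0.114 for *Lcor*, 0.144 for *Lcorl* and 0.231 for *Phf1*. *Phf1* and *Lcorl* also lost their calls without control replicate 2 (0.181 and 0.130) and without PRC1cKO replicate 2 (0.0892 and 0.105). *Uty*, the Y-linked paralog of *Kdm6a* with little demethylase activity, went from 11.9 and 13.4 TPM to 7.14 and 5.69 TPM and fell by 0.88 ± 0.17 (limma adjusted p = 0.00993; 0.0629 without PRC1cKO replicate 2). At 2 mo none of the 22 of these 24 genes that were tested passed (limma, lowest adjusted p = 0.293). An unadjusted p under 0.05 was found for 1 of them and for 1985 of all 13953 genes. Averaged over both settings, where 9.26% of all genes were lower, 4 of the 24 fell: *Kmt2c* (-1.23), *Crebbp* (-0.89), *Ash1l* (-0.87) and *Nsd1* (-0.72). Each of those calls was lost without either Win18446 control (limma adjusted p of 0.0683 to 0.191) and without PRC1cKO replicate 1 after Win18446 (0.0848 to 0.153), and without further single libraries at 2 mo (0.0506 to 0.105) or after Win18446.

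**Figure D4:**
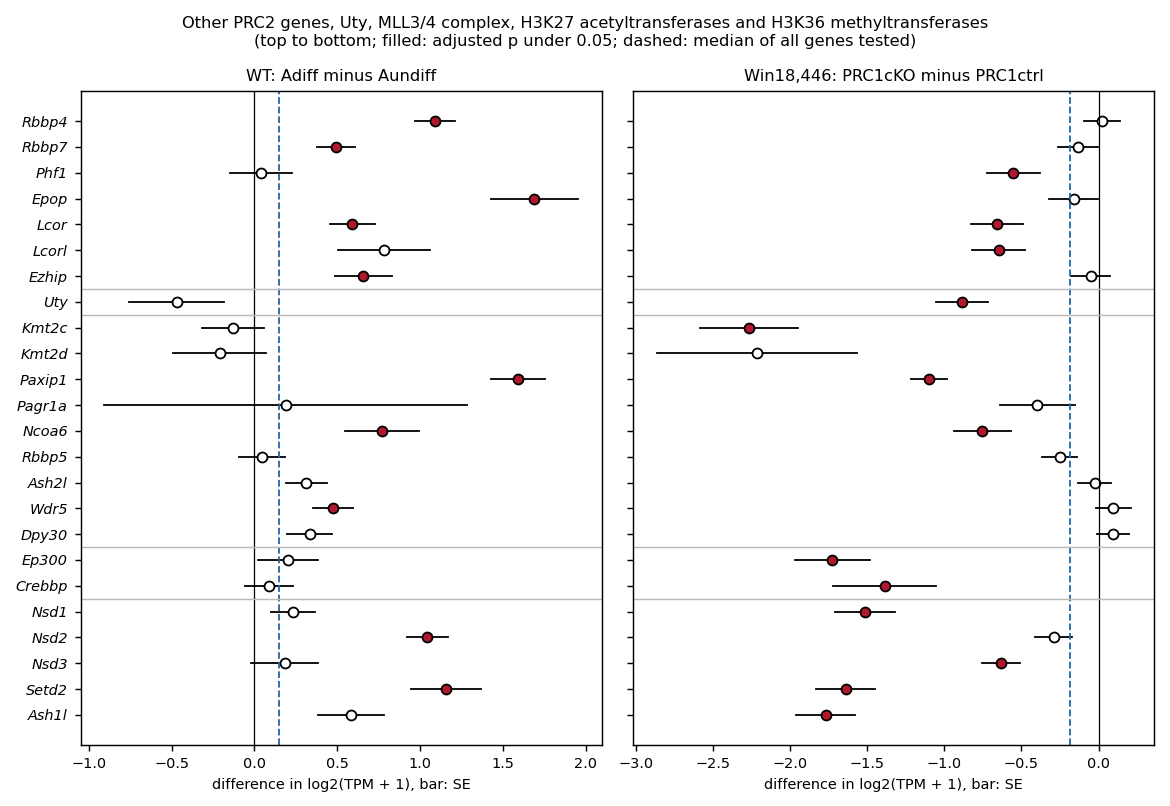
Differences in log2(TPM + 1) with SE bars (horizontal axis) for the other pathway genes, by list from top to bottom, in WT and after Win18446, with filled points at an adjusted p under 0.05 and a dashed line at the median of all genes. *Epop*, *Paxip1*, *Setd2*, *Rbbp4* and *Nsd2* lie past 1 on the left panel, and *Kmt2c*, *Kmt2d*, *Ash1l*, *Ep300*, *Setd2*, *Nsd1*, *Crebbp* and *Paxip1* lie past -1 on the right panel.

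In the order of group means, *Ezh1* was highest in the Win18446 controls (67.8 TPM) and WT Aundiff (62.7 TPM), which overlapped, then in the Win18446 libraries labelled PRC1cKO (45.7 TPM) and WT Adiff (42.0 TPM), which also overlapped, and lowest in the 2 mo groups (7.78 and 4.80 TPM). *Ezh2* was at 28.3 TPM in the Win18446 controls and 27.2 TPM in WT Adiff, which overlapped, above 19.9 TPM in the PRC1cKO libraries after Win18446 and 17.1 TPM in WT Aundiff, which differed by less than the larger SD. *Suz12* fell into an upper set of 4 overlapping groups, from 52.5 TPM in the 2 mo PRC1cKO libraries to 38.8 TPM in the Win18446 controls, and a lower set of WT Aundiff (22.7 TPM) and the PRC1cKO libraries after Win18446 (22.4 TPM). *Kdm6b* overlapped between WT Adiff (55.6 TPM) and the Win18446 controls (42.7 TPM), and between the PRC1cKO libraries after Win18446 (22.7 TPM) and WT Aundiff (21.7 TPM). *Jarid2* ran from WT Adiff (153 TPM) through the Win18446 controls (134 TPM) and the PRC1cKO libraries after Win18446 (106 TPM) to WT Aundiff (78.6 TPM) with no overlap between neighbours, and was at 15.6 and 14.3 TPM in the 2 mo groups. The Win18446 controls were sorted as Aundiff, and for *Jarid2*, *Kdm6b*, *Suz12*, *Ezh2*, *Eed*, *Aebp2*, *Kdm6a* and *Phf19* their mean lay nearer to WT Adiff than to WT Aundiff. The share of all genes nearer to WT Adiff was not counted. Undifferentiated markers summed to 988 and 1101 TPM in these controls, 1066 and 1206 TPM in WT Aundiff and 301 and 342 TPM in WT Adiff. Differentiating markers summed to 640 and 707 TPM, 548 and 599 TPM, and 2227 and 2317 TPM in the same order. The Win18446 controls and the WT groups differ in strain, *Ring1* and *Rnf2* genotype, the *Ddx4*-Cre and treatment, and no test was made between them. For *Phf19* the lower level was the nearer, with 3.33 TPM in WT Aundiff, 1.12 TPM in WT Adiff and 0.860 TPM in the Win18446 controls. *Ezh1* and *Mtf2* were nearer to WT Aundiff, *Mtf2* at 201 TPM in the Win18446 controls, 119 TPM in WT Aundiff and 59.975 TPM in WT Adiff, with no overlap.

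Across the 8 TruSeq libraries, *Suz12* correlated with *Ezh2* at 0.86, with *Eed* at 0.86, with *Jarid2* at 0.83 and with *Kdm6b* at 0.82, and with *Phf19* at -0.94 (Pearson, log2(TPM + 1)). Of the genes with E2F letters in the promoter printed above, *Ezh2* and *Suz12* ran together and *Phf19* against them (-0.89 with *Ezh2*). *Eed* and *Jarid2*, with 0 promoters that hold the letters, ran about as closely with *Suz12*. Any link of the letters to these values was not tested. *Ezh1* stood apart from *Suz12* (-0.08) and *Ezh2* (-0.13) and was nearest to *Mtf2* (0.76). These 8 libraries share their group structure and the common scale of TPM, so the values are descriptions.

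The genes most like *Ezh1*, *Ezh2* and *Kdm6b* over all 12 libraries were ranked among 10136 protein-coding genes with a mean of at least 5 TPM. For *Ezh1* these were *Eml4* (Pearson 0.997), *Surf6*, *Nol9*, *Ndst2* and *Ifnar1*. For *Ezh2* they were *Arhgap5* (0.991), *Eif5*, *Fbxw7*, *Cetn2* and *Esf1*, and for *Kdm6b* *Rab11fip4* (0.991), *Ulk1*, *Zfp652*, *Myo19* and *Lmtk2*. The Smart-Seq2 libraries stand apart in these values, and how far the likeness follows that split was not tested. Over the 8 TruSeq libraries, a ranking added after the data were seen, *Kdm6b* was most like *Msi1* (0.991) and also like *Aurkb* (0.986), *Ezh2* was most like *Tgs1* (0.973) and *Ezh1* like *Dlg4* (0.978), and of the genes named for all 12 libraries *Eml4* was again among the 5 nearest to *Ezh1* (0.975).

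The 2 control groups, both Ring1-/-; Rnf2 F/+; *Ddx4*-Cre Aundiff, showed how far the levels depend on the setting. From the Win18446 controls to the 2 mo controls, *Ezh1* differed by -3.62 on the log2(TPM + 1) scale, *Kdm6b* by -3.35, *Jarid2* by -3.15 and *Kdm6a* by -1.74. In the other direction *Ezh2* differed by 2.02, *Eed* by 1.58 and *Mtf2* by 0.84. Long transcripts were lower in the 2 mo libraries in general: the median was -0.19 for protein-coding genes under 2000 bases and -1.97 for those of 8000 bases or more. In percentiles of its length class, *Ezh2* stood at 96.9, *Eed* at 94.7, *Mtf2* at 91.8 and *Suz12* at 85.3, and *Ezh1* at 14.3, *Kdm6b* at 18.3 and *Jarid2* at 21.4. The kits also differ in how they treat strand. From 2.61% to 6.93% of the exonic bases of *Ezh2*, *Eed*, *Suz12*, *Mtf2* and *Kdm6b* lie over a gene on the other strand, whose reads an unstranded library cannot tell apart. No exonic base of the 10 genes lies over another gene on the same strand, and at most 0.364% of the 50-base stretches of any of their transcripts recur in another gene.

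**Figure D5:**
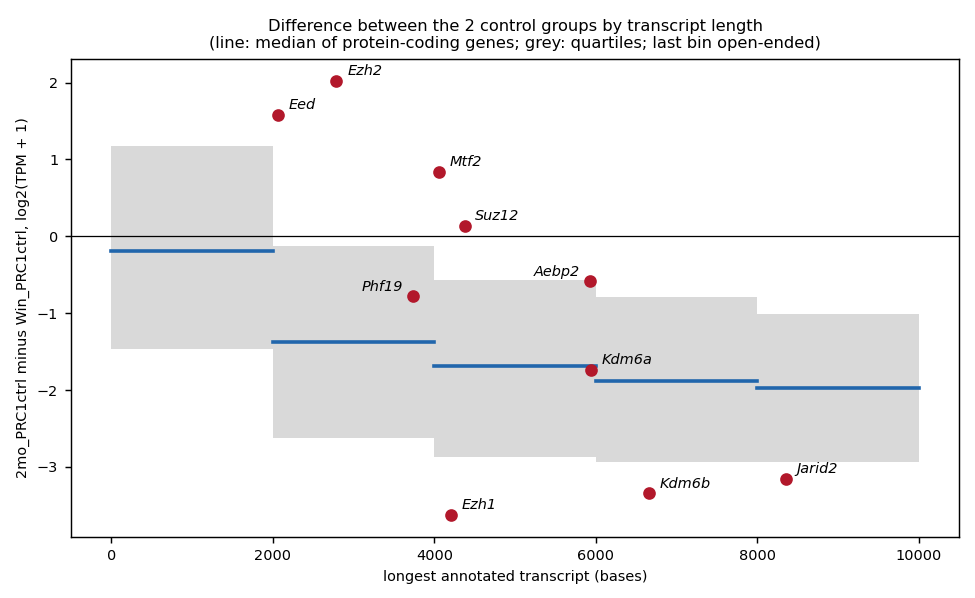
Difference of the 2 mo control mean from the Win18446 control mean in log2(TPM + 1) (vertical axis) against the longest annotated transcript in bases (horizontal axis), with a line at the median and grey at the quartiles of protein-coding genes in 5 length classes and a point for each of the 10 genes. *Ezh2*, *Eed*, *Mtf2* and *Suz12* lie above the quartiles of their class, and *Ezh1*, *Kdm6b* and *Jarid2* lie below them.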

How the data were processed

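Spermatogonia were sorted from mouse testes and sequenced as 12 RNA-seq libraries in 6 groups of 2, grouped by their labels. The authors quantified genes as TPM with RSEM and deposited the TPM of 55385 genes. The submitters' processing notes name Trim Galore 0.6.6, HISAT2 2.2.1, SAMtools 1.9, HTSeq 1.6.0, DESeq2 1.28.1 and RSEM 1.3.3 without their roles, and gene coordinates are those of GRCm38. TPM holds no read counts, so depth and counting error are unknown and a test on counts could not be made.

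From the deposited TPM, differences were tested with limma 3.58.1 (R 4.3.3, trend and robust moderation, two-sided) on log2(TPM + 1), for genes with at least 1 TPM in at least 2 of the libraries fitted. Adjusted p-values (Benjamini-Hochberg, across every gene tested) were read at a threshold of 0.05, with an absolute log2 fold change of 1 as a further one. A fold change on this scale understates the change of genes near 1 TPM. In WT, Adiff were tested against Aundiff. The label PRC1cKO was tested against PRC1ctrl at 2 mo, after Win18446, as the mean of both PRC1 settings and as their interaction. The mean and the interaction use the same libraries as the 2 mo and Win18446 comparisons. The 4 within-library shares and ratios were compared by a two-sided exact permutation test over libraries. The fits were tested on simulated data. Named genes were the 10 genes whatever their values, pathway genes from fixed lists where they passed, and the 5 genes most like *Ezh1*, *Ezh2* and *Kdm6b*. The members and lists were chosen with earlier results of these data known. Alternatives were another pseudocount, filters, scalings, the replicate number as a block, limma without trend and robust moderation, one fit over all 12 libraries and leaving out each library. The length classes and the ranking over 8 TruSeq libraries were chosen after seeing the data. Transcript lengths came from gencode vM21 and promoters from RefSeq. Python 3.11.15, numpy 2.4.6, pandas 2.3.3, scipy 1.17.1 and matplotlib 3.10.9 were used.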

Additional observations from a re-analysis of the deposited data

Results flagged for a closer look

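Among the 24 other pathway genes, 5 differed between the 2 mo and Win18446 settings in the effect of the label PRC1cKO. By the same limma test of the interaction on log2(TPM + 1), 5.03% of all genes were lower and 2.77% higher. The difference between the settings was -2.29 for *Setd2* (adjusted p = 0.0198), -2.08 for *Kmt2c* (0.0461), -1.80 for *Ash1l* (0.0397), -1.67 for *Paxip1* (0.0456) and -1.59 for *Nsd1* (0.0409). The label effect after Win18446 was -1.64 for *Setd2*, -2.26 for *Kmt2c*, -1.77 for *Ash1l*, -1.099 for *Paxip1* and -1.51 for *Nsd1*. At 2 mo it was 0.65, -0.19, 0.03, 0.58 and 0.07 in the same order, and none passed. *Setd2* kept its call in 11 of 16 alternatives, *Ash1l* in 6, *Paxip1* in 5, *Nsd1* in 4 and *Kmt2c* in 3. Each of the 5 lost it without any 1 of the 4 Win18446 libraries, with adjusted p of 0.0599 to 0.235, and without PRC1cKO replicate 2 at 2 mo (0.0581 to 0.105). *Kmt2c* and *Nsd1* also lost it without each other 2 mo library (0.0509 to 0.0917), *Paxip1* without either 2 mo control (0.0964 and 0.0605) and *Ash1l* without control replicate 1 at 2 mo (0.0866). With median-of-ratios scaling, 4 of the 5 lost it, at -1.37 for *Kmt2c* (adjusted p = 0.208), -1.10 for *Ash1l* (0.104), -1.06 for *Paxip1* (0.110) and -0.88 for *Nsd1* (0.256). The median interaction of protein-coding genes was -0.84 for longest transcripts of 8000 bases or more, where *Setd2*, *Kmt2c*, *Ash1l* and *Nsd1* lie. It was -0.54 for 4000 to 6000 bases, where *Paxip1* lies. By adjusted p, 13.5% of the genes of 8000 bases or more and 3.99% of those of 4000 to 6000 bases were lower. Treatment, library kit and cell number differ together between the settings and cannot be told apart. None of the 10 PRC2 and demethylase genes passed this test without a replicate block.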

How the results depend on the processing

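In WT, 8 of the 10 genes passed, and 3 did with no filter on low values, 5 with quantile normalization, 5 in the fit over all 12 libraries and 3 to 7 with 1 library left out; past an absolute log2 fold change of 1 there were 2, and 1 with no filter, 1 with a mean of at least 5 TPM and 2 to 4 with 1 library left out. Genes passing in WT numbered 3839 with no filter and 2765 to 5668 with 1 library left out. After Win18446, 8 of the 10 passed, and 3 with no filter, 3 with median-of-ratios scaling, 3 with quantile normalization, 3 over all 12 libraries and 2 to 7 with 1 library left out. No gene of the 10 was past 1 there, and 1 was with a pseudocount of 0.1, 1 with median-of-ratios scaling, 1 with quantile normalization and 0 to 1 with 1 library left out. Genes passing after Win18446 numbered 3063 with no filter, 3548 with a mean of at least 5 TPM, 2158 over all 12 libraries and 2103 to 4338 with 1 library left out. At 2 mo they numbered 301, and 0 with no filter, 96 with a mean of at least 5 TPM, 917 with median-of-ratios scaling, 824 with quantile normalization, 1976 over all 12 libraries and 78 to 168 with 1 library left out, with 0 of the 10 genes in each. For the mean of both settings, 2 of the 10 passed, and 1 with a pseudocount of 0.1, 1 with no filter, 0 with a mean of at least 5 TPM, 1 with median-of-ratios scaling, 1 without trend and robust moderation and 0 to 1 with 1 library left out; genes passing numbered 474 with a mean of at least 5 TPM and 507 to 1959 with 1 library left out. Interaction calls numbered 470 with a pseudocount of 0.1, 931 with no filter, 176 with a mean of at least 5 TPM and 21 to 1443 with 1 library left out.

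Directions changed only for differences that had not passed. At 2 mo, median-of-ratios scaling gave -0.18 for *Eed*, -0.051 for *Suz12*, -0.21 for *Jarid2* and -0.064 for *Aebp2*, and quantile normalization -0.10 for *Jarid2* and -0.015 for *Aebp2*. Without 1 library the 2 mo value ranged from -0.44 to 0.34 for *Ezh2*, -0.091 to 0.36 for *Eed*, -0.075 to 0.59 for *Suz12*, -0.29 to 0.47 for *Jarid2*, -0.16 to 0.63 for *Aebp2* and -0.35 to 0.062 for *Kdm6a*. The mean of both settings was -0.0050 for *Ezh1* with quantile normalization, and without 1 library it ranged from -0.20 to 0.23 for *Ezh1*, -0.32 to 0.061 for *Jarid2* and -0.38 to 0.023 for *Aebp2*. The interaction with median-of-ratios scaling was 0.26 for *Ezh2*, 0.087 for *Eed*, 0.27 for *Jarid2* and 0.45 for *Mtf2*, and with a pseudocount of 0.1 it was -0.30 for *Phf19*.

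With 1 library left out, the difference in *Ezh2* share ranged from 16.3 to 19.2 points in WT, -6.36 to 0.933 at 2 mo and -2.92 to 4.78 after Win18446. That in the *Jarid2* and *Aebp2* share ranged from 20.8 to 24.1, 2.57 to 4.66 and 0.737 to 5.11, that in the *Kdm6b* share from 9.08 to 13.1, 3.71 to 20.5 and -5.92 to 4.50, and that in the ratio of methyltransferase to demethylase TPM from -2.04 to -1.48, -13.3 to 2.73 and 0.218 to 0.854.

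With the replicate number as a block, 9 of the 10 genes passed in WT (*Eed* added, adjusted p = 0.0247), 10 after Win18446 (*Ezh2* at 0.0167 and *Jarid2* at 0.0485 added), 0 at 2 mo and 1 in the interaction (*Kdm6b*, adjusted p = 0.0397, also 1 past a log2 value of 1), and 2793 genes passed at 2 mo, 1562 higher and 1231 lower. The samples share only a number: deviations from group means correlated at 0.158 in WT, 0.381 at 2 mo and 0.122 after Win18446, with 2 pairs each. The cause of these changes was not tested. Read depth is unknown, and 2 libraries per group limit the precision.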
